A study of Mus musculus with 12 samples.

Results

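The comparison of sgRNA2 with control in unstimulated cells set 2 libraries of 4T1 cells carrying the Cebpd guide named sgRNA2, labelled Cebpd knockout and given vehicle, against 2 libraries of 4T1 cells carrying a Rosa26 guide, labelled control and given vehicle. These 4 of the 12 libraries of the series were taken by sample title and treatment entry, and all 16283 genes of the count table were considered, of which 13601 had enough reads to be tested. 4T1 is a mouse breast cancer line from the BALB/c strain, and Rosa26 is a locus often used as a neutral target for CRISPR guides. The other libraries used here were 2 of sgRNA1 with vehicle, a different guide against Cebpd, and 2 each of sgRNA2 and of control given interferon gamma (IFN-gamma) at 20 ng/ml for 24 hours. All groups carried a guide, so none is the unedited parent line. The sources used here do not say whether a guide line was 1 clone or a pool, or whether paired libraries stand for separate cultures. The p-values therefore measure the spread between these libraries, which may be technical.

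C/EBPδ, the product of Cebpd, is a leucine zipper transcription factor that binds motifs containing TTGCNNAA and is induced in acute phase and inflammatory responses. A few sets of genes carry most of the description below. Ribosome biogenesis factors cut, modify and fold ribosomal RNA in the nucleolus. Hypoxia-inducible genes are activated by HIF, which binds a core written ACGTG. Interferon-stimulated genes are activated through STAT and IRF factors, which bind gamma-activated sequences (TTCNNNGAA) and interferon-stimulated response elements. Sterol and fatty acid synthesis genes are activated by SREBP factors.

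Promoters of 1 gene from each of 4 gene lists are shown, 3 from lists described at length below and 1 from the acute phase list, which holds genes regulated by C/EBP factors. Each is the listed gene of at least 5 CPM (reads of the gene scaled to the library's size) with the largest fold change among those holding the motif, and each window runs from 250 bases before to 50 bases after the gene's start, from RefSeq on GRCm38.p6. Capitals mark the motif, searched on both strands. For the ribosome biogenesis factor Mdn1 (chr4:32656869-32657168, plus strand) they mark the E-box CACGTG, bound by MYC and other basic helix-loop-helix factors, 39 bases after the start. For the hypoxia-inducible gene Ankrd37 (chr8:45999801-46000100, minus strand) they mark 2 ACGTG cores, 241 and 6 bases before the start. For the interferon-induced transcription factor gene Irf1 (chr11:53769764-53770063, plus strand) they mark a gamma-activated sequence 90 bases before the start, and for the acute phase gene Lcn2 (chr2:32387690-32387989, minus strand) a C/EBP motif 216 bases before the start.
Mdn1: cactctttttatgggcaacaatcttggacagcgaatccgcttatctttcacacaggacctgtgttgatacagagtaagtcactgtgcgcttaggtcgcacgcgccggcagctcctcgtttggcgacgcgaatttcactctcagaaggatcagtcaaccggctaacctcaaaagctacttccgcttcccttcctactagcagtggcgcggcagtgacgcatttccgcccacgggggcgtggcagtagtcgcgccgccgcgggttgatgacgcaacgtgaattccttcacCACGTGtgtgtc
Ankrd37: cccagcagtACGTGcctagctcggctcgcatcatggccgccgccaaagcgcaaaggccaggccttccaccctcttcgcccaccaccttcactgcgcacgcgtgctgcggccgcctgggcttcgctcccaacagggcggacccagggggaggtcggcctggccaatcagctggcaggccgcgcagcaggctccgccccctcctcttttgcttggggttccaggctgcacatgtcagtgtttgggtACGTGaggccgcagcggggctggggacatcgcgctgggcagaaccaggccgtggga
Irf1: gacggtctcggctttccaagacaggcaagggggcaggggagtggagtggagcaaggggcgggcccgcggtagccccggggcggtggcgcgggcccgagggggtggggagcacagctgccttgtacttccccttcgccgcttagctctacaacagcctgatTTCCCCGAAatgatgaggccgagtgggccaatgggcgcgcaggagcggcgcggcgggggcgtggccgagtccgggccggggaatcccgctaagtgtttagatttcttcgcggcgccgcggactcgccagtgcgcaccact
Lcn2: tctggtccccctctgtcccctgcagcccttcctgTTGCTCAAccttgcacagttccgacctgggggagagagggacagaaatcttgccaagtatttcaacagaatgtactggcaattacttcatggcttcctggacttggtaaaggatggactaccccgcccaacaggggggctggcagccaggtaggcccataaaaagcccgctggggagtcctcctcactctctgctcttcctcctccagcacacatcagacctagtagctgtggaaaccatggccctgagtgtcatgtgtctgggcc
The E-box was present in 8 of 30 ribosome biogenesis promoters (26.7%), against 7.24% of the 27025 promoters in the RefSeq table, which include genes not tested here. Of promoters of genes called at least 2-fold lower 15.9% held the E-box, and of those of genes called at least 2-fold higher 7.02%. It was in 4 of 12 tRNA synthetase promoters (33.3%) and 5 of 58 cytosolic ribosomal protein promoters (8.62%). ACGTG, which lies within CACGTG and so counts every E-box too, was present in 15 of 25 hypoxia-inducible promoters (60.0%), against 19.6% of all promoters. It was also present in 36.7% of ribosome biogenesis promoters and 31.0% of cytosolic ribosomal protein promoters. Of promoters of genes called at least 2-fold higher 21.1% held it, and of those of genes called at least 2-fold lower 31.1%. The C/EBP motif was present in 8 of 12 promoters of acute phase genes (66.7%), against 10.7% of all promoters. That list was written to hold genes regulated by C/EBP factors, so a high share follows in part from the choice. Of promoters of genes called at least 2-fold higher 10.5% held the C/EBP motif, and of those of genes called at least 2-fold lower 7.04%. Only 24 of 37 tested IFN-gamma response genes and 21 of 32 type I interferon-stimulated genes had a promoter in the table, and no share is given for them. Coverage was also partial for some sets with a share. It was 58 of 79 cytosolic ribosomal protein genes and 12 of 19 tRNA synthetase genes. Of the genes called at least 2-fold higher it was 1623 of 2344, and of those at least 2-fold lower 881 of 1195. A match describes the letters of the window and is no evidence of binding.

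Cebpd RNA itself was not called different with sgRNA2. Cebpd (chromosome 16, 15887286 to 15891031, plus strand, GRCm38) had 10.6 and 8.51 CPM in the 2 sgRNA2 libraries, against 9.09 and 7.13 CPM in the 2 control libraries, from 204 and 150 against 176 and 136 reads. The groups overlapped, and the log2 fold change was 0.24 ± 0.13 (SE; edgeR quasi-likelihood test, Benjamini-Hochberg adjusted p = 0.101). Small edits at a guide's target can leave the RNA level as it was, so the RNA count is no check of the knockout label. Epithelial markers of the line were present: Epcam, an adhesion molecule, had 440.2 and 425 CPM in sgRNA2 and 272 and 269.8 CPM in control libraries, and Krt18, a keratin, had 1111 and 1106 CPM in sgRNA2 and 992 and 1001 CPM in control libraries. E-cadherin (Cdh1) had 289 and 285 CPM in sgRNA2 and 335 and 328 CPM in control libraries. Total counts were 19873018 and 18304354 in the sgRNA2 libraries and 19574686 and 19244015 in the control libraries.

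The sgRNA2 line differed from control at most of the transcriptome. A gene was called where the adjusted p was below 0.05, and 9971 of 13601 genes were called, 73.3% of those tested. Of these, 5212 were higher in sgRNA2 cells (38.3%) and 4759 were lower (35.0%). At least a 2-fold change was reached by 2344 of the genes called higher (17.2%) and by 1195 of those called lower (8.79%). The median log2 fold change over all tested genes was 0.062. Higher genes made up 52.3% of the calls, and 62.5% under upper quartile scaling, which moved every fold change by 0.17 on the log2 scale. They made up 51.2% with RLE scaling, 50.8% with DESeq2 and 49.9% with the 4 libraries of the comparison alone. In the text below, a value with ± is the log2 fold change of sgRNA2 over control with its SE unless another difference is named. All list counts are to be read against these percentages, and the plot of gene lists shows their members. The shares varied with level. At 1 to 5 CPM 881 of 1768 genes were called higher and 210 lower, and above 100 CPM 789 of 2192 were higher and 1129 lower. Lists with many low-level genes, such as the interferon lists, are to be read against the shares at their level.

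**Figure D1:**
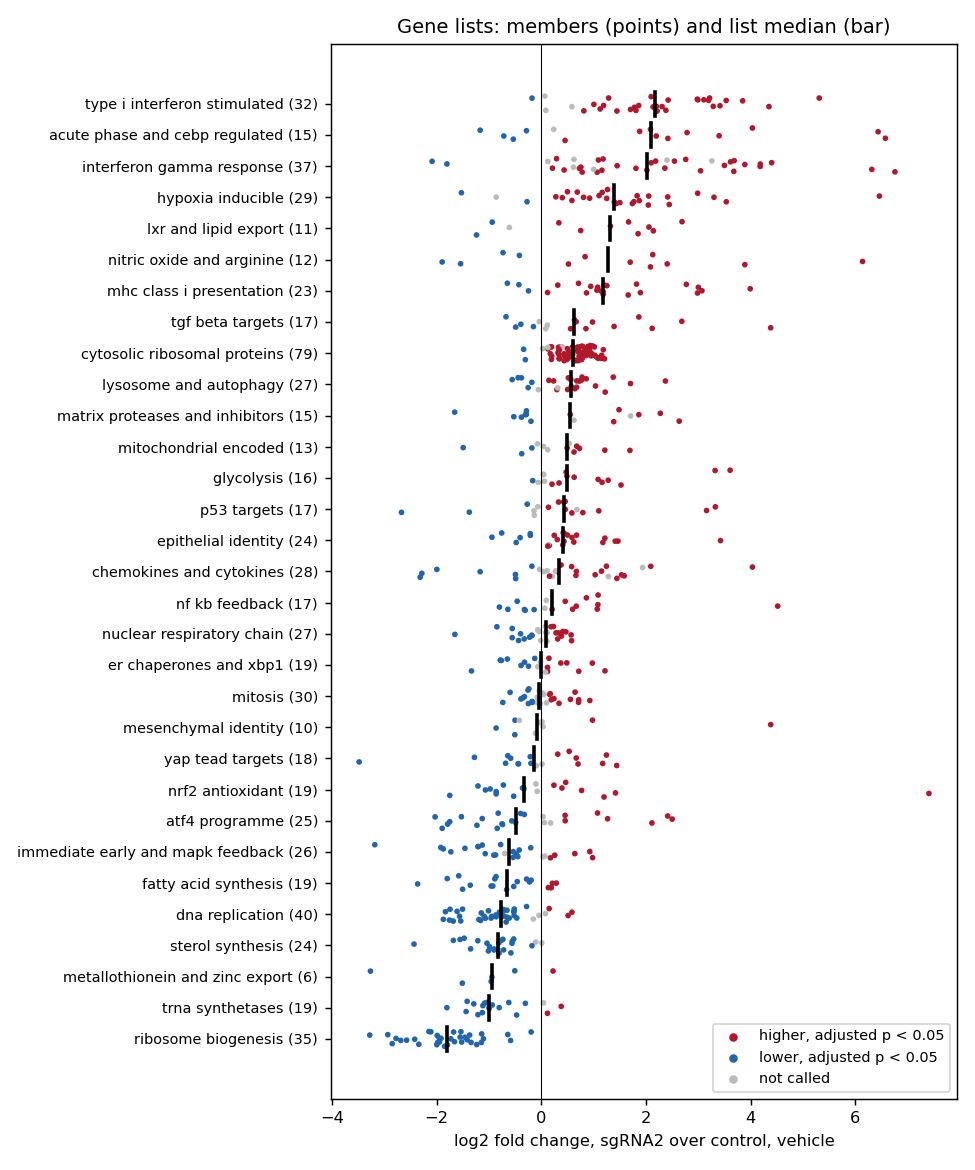
Log2 fold changes of sgRNA2 over control in vehicle (x axis) for the tested members of each gene list (y axis, number tested in brackets); each point is a gene, red called higher, blue called lower, grey not called, and the black bar is the list median. Ribosome biogenesis lies lowest, with a median of -1.79 and all 35 members called lower, and the interferon, acute phase and hypoxia lists lie highest.

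Genes that make ribosomes were lower in sgRNA2 cells, while the mRNAs of the ribosomal proteins were higher. All 35 ribosome biogenesis factors tested were called lower, with a median log2 fold change of -1.79 and a range from -3.28 (Rrp12) to -0.19 (Npm1); under upper quartile scaling 34 were called. Rrp12, which in yeast takes part in maturation and export of both ribosomal subunits, had 6.12 and 6.35 CPM in sgRNA2 libraries, against 59.1 and 61.8 CPM in control libraries (-3.28 ± 0.083, edgeR adjusted p = 6.27e-16). Bysl, a small subunit processing factor, had 8.81 and 10.5 CPM with sgRNA2 and 72.6 and 74.4 CPM in control, a log2 fold change of -2.93 ± 0.078. Mdn1, the ATPase that remodels large subunit precursors, had 15.4 and 14.8 CPM with sgRNA2 and 104 and 114 CPM in control (-2.85 ± 0.07). Utp20, of the small subunit processome, had 20.9 and 20.1 CPM with sgRNA2 and 141 and 140.1 CPM in control (-2.77 ± 0.073). Nucleolin (Ncl), an abundant nucleolar protein, was among the 6 genes that lost most in CPM, at 458 and 481 CPM with sgRNA2 against 1477 and 1633 CPM in control. In each of these genes both sgRNA2 libraries lay below both control libraries by more than the gap between replicates.

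Of 79 cytosolic ribosomal protein genes, 73 were called higher and 2 lower, with a median log2 fold change of 0.61. Rps3 had 4177 and 4228 CPM with sgRNA2 and 1841 and 1794 CPM in control (1.21 ± 0.044, edgeR adjusted p = 4.87e-14), and Rps24 had 3046 and 3259 CPM with sgRNA2 and 1417 and 1354 CPM in control (1.19 ± 0.063). Rpl13a had 4260.0 and 4186 CPM with sgRNA2 and 1887 and 1929 CPM in control (1.15 ± 0.053). The 2 called lower were Rpl29 (-0.34 ± 0.10) and Rpl30 (-0.30 ± 0.086), and neither was called lower under upper quartile scaling. Ribosomal protein genes have many near-identical pseudogenes, so single members are uncertain to the extent that reads were shared. Eef1a1, the elongation factor that delivers tRNA to the ribosome, gained most in CPM of all genes, at 24544 and 25678 CPM with sgRNA2 and 16160 and 14996 CPM in control (0.69 ± 0.042). Other parts of the translation machinery went the other way: Eif4g1, the scaffold of the cap-binding complex, had 345 and 343 CPM with sgRNA2 and 1219.7 and 1299.6 CPM in control (-1.87 ± 0.043), and the poly(A)-binding protein gene Pabpc1 had 2022 and 2000.4 CPM with sgRNA2 and 3122 and 3163 CPM in control (-0.64 ± 0.039).

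Cytosolic tRNA synthetases, which charge tRNAs with amino acids, were called lower in 16 of 19 and higher in 2, with a median of -0.998. The largest falls were in Wars, for tryptophan, with 35.3 and 31.2 CPM with sgRNA2 and 117 and 115 CPM in control (-1.80 ± 0.055), and in Tars, for threonine, with 74.9 and 77.5 CPM with sgRNA2 and 205 and 207 CPM in control (-1.44 ± 0.054). Aars, for alanine, had 126 and 137 CPM with sgRNA2 and 347 and 354 CPM in control (-1.42 ± 0.046). Sars, for serine, was called higher (0.38 ± 0.049), as was Dars, for aspartate (0.12 ± 0.047), a call of small size that was lost under 7 of the alternatives tried. Among targets of ATF4, the transcription factor of the amino acid response, 15 of 25 were called lower and 7 higher (median -0.49). The mitochondrial folate enzyme gene Mthfd2 had 20.9 and 17.8 CPM with sgRNA2 and 78.3 and 79.8 CPM in control (-2.03 ± 0.07), and Shmt2, of the same pathway, had 73.98 and 71.8 CPM with sgRNA2 and 257 and 247 CPM in control (-1.79 ± 0.049). The members called higher included the stress genes Ddit4, an inhibitor of mTORC1, with 1086 and 1088 CPM with sgRNA2 and 199 and 209 CPM in control (2.42 ± 0.055), and Ddit3, which encodes CHOP, with 41.1 and 43.00 CPM with sgRNA2 and 9.14 and 10.3 CPM in control (2.11 ± 0.08).

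**Figure D2:**
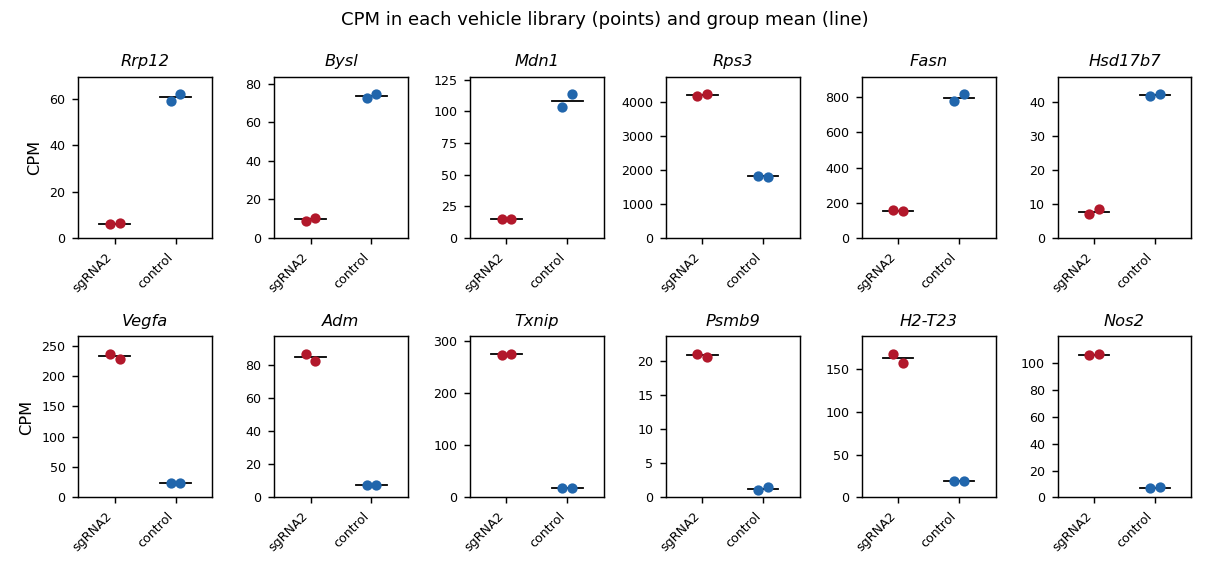
CPM (y axis, from 0) in each vehicle library for 12 genes named in the text; points are the 2 sgRNA2 libraries (red, left) and the 2 control libraries (blue, right), lines are group means. In every panel the 2 groups are separated by more than the distance between the 2 libraries of a group, with Rrp12, Bysl, Mdn1, Fasn and Hsd17b7 lower and the other 7 genes higher in sgRNA2 cells.

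DNA replication genes were lower while mitosis genes were mixed. Of 40 DNA replication genes, 34 were called lower and 3 higher (5 by upper quartile scaling), with a median of -0.78. Cdc6, which loads the replicative helicase, had 15.97 and 14.9 CPM with sgRNA2 and 54.3 and 58.7 CPM in control (-1.87 ± 0.079, edgeR adjusted p = 3.35e-13), and Mcm4, a subunit of that helicase, had 61.5 and 60.3 CPM with sgRNA2 and 204 and 204 CPM in control (-1.74 ± 0.049). The flap endonuclease gene Fen1 had 35.7 and 33.98 CPM with sgRNA2 and 124 and 124 CPM in control (-1.83 ± 0.058), and cyclin E1 (Ccne1) had 4.93 and 5.96 CPM with sgRNA2 and 19.3 and 17.3 CPM in control (-1.75 ± 0.13). The 3 called higher were the helicase subunits Gins4 (0.59 ± 0.057) and Gins2 (0.51 ± 0.058) and the clamp loader subunit Rfc4 (0.15 ± 0.053), whose call was lost under 6 alternatives. Of 30 mitosis genes 10 were called higher and 11 lower (median -0.046), and 17 higher and 6 lower (median 0.12) under upper quartile scaling; the shares without that scaling were near those of all genes. Cenpa, the centromeric histone, had 629 and 629.9 CPM with sgRNA2 and 331 and 330.3 CPM in control (0.93 ± 0.043), while Foxm1, a transcription factor of mitotic genes, had 90.2 and 94.7 CPM with sgRNA2 and 152 and 155 CPM in control (-0.73 ± 0.045).

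Lipid synthesis genes were lower. Of 24 sterol synthesis genes, 22 were called lower and the other 2 were not called, with a median of -0.82. By upper quartile scaling 21 were lower and 1 higher. Hsd17b7, an enzyme of cholesterol synthesis, had 6.95 and 8.62 CPM with sgRNA2 and 41.7 and 42.1 CPM in control (-2.43 ± 0.11, edgeR adjusted p = 5.77e-13). Of 19 fatty acid synthesis genes, 15 were called lower and 4 higher (median -0.66). Fasn, the fatty acid synthase, had 158 and 152 CPM with sgRNA2 and 778 and 815 CPM in control (-2.36 ± 0.048, edgeR adjusted p = 5.31e-17), and Acly, which supplies cytosolic acetyl-CoA, had 155 and 155 CPM with sgRNA2 and 425 and 454 CPM in control (-1.50 ± 0.046). The 4 called higher, Dgat1, Lpin1, Acss2 and Acsl3, changed by at most 0.29 on the log2 scale, and each lost its call under 5 to 8 alternatives. On the list of liver X receptor targets and lipid export, 8 of 11 were called higher and 2 lower (median 1.32), with the cholesterol exporter gene Abcg1 at 4.25 and 4.99 CPM with sgRNA2 and 1.19 and 0.891 CPM in control (2.14 ± 0.22). The apolipoprotein genes Apol9a and Apol9b, near-identical copies that can share reads, were also higher (2.69 ± 0.086 and 2.06 ± 0.084).

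Hypoxia-inducible and glycolytic genes were higher in sgRNA2 cells. Of 29 hypoxia-inducible genes, 26 were called higher and 2 lower, with a median of 1.40. Adm, which encodes the vasodilator adrenomedullin, had 86.8 and 82.3 CPM with sgRNA2 and 7.28 and 7.29 CPM in control (3.54 ± 0.10, edgeR adjusted p = 2.79e-15). Vegfa, the angiogenic growth factor gene, had 237 and 229 CPM with sgRNA2 and 23.5 and 23.8 CPM in control (3.30 ± 0.065, edgeR adjusted p = 4.85e-17). Ankrd37, whose promoter is shown above, had 97.8 and 101 CPM with sgRNA2 and 13.1 and 12.01 CPM in control (2.99 ± 0.11). Selenbp1 had 57 and 48 reads with sgRNA2 and 1 and 0 reads in control, a ratio of 109 with a 95% counting interval from 19.2 to 4359. The 2 called lower were Stc2, a secreted glycoprotein gene (-1.53 ± 0.18), and the adenylate kinase gene Ak4 (-0.27 ± 0.058). Of 16 glycolysis genes, 11 were called higher and 1 lower (median 0.48), and Pgk1, phosphoglycerate kinase, was among the 6 genes that gained most in CPM, at 5178 and 5193 CPM with sgRNA2 and 1853 and 1755 CPM in control (1.52 ± 0.037). The isozyme genes Eno2 and Aldoc and the main aldolase gene Aldoa all rose. Eno2 had 138 and 138 CPM with sgRNA2 and 10.6 and 12.01 CPM in control (3.61 ± 0.066), Aldoc had 128 and 127 CPM with sgRNA2 and 12.96 and 12.5 CPM in control (3.32 ± 0.068), and Aldoa had 3286 and 3258 CPM with sgRNA2 and 1354 and 1342 CPM in control (1.28 ± 0.036). Pfkl, of phosphofructokinase, was called lower (-0.16 ± 0.045) but stood at 0.0032 under upper quartile scaling. Txnip and Arrdc4, alpha-arrestins that restrain glucose uptake, were higher too: Txnip had 274 and 276 CPM with sgRNA2 and 17.6 and 18.7 CPM in control (3.92 ± 0.056, edgeR adjusted p = 1.24e-18), and Arrdc4 had 31.9 and 28.1 CPM with sgRNA2 and 1.96 and 1.63 CPM in control (4.06 ± 0.17).

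**Figure D3:**
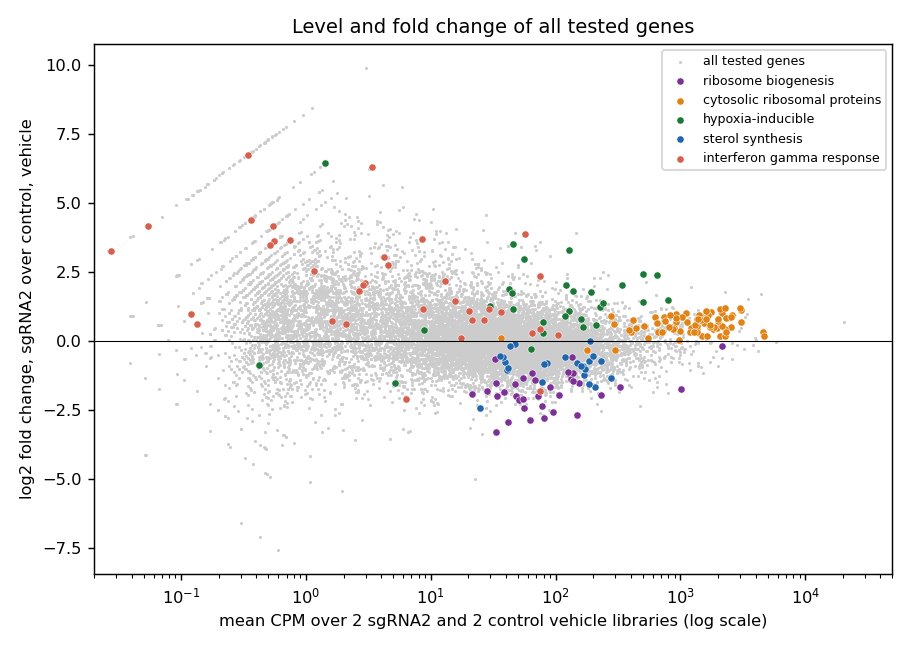
Mean CPM of the 4 vehicle libraries (x axis, log scale) and log2 fold change of sgRNA2 over control (y axis) for 13601 tested genes (grey), with 5 gene lists in colour. Ribosome biogenesis and sterol synthesis genes lie below 0 at middle levels, ribosomal protein genes lie mostly above 0 at high levels, and many interferon genes with large fold changes lie at or below 10 CPM.

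Without added interferon, interferon-stimulated and antigen presentation genes were higher in sgRNA2 cells. Of 37 IFN-gamma response genes, 29 were called higher and 2 lower (median 2.02), and of 32 type I interferon-stimulated genes, 28 were called higher and 1 lower (median 2.17). Some of these genes passed the filter on low counts only through other groups. With the 4 libraries of the comparison alone, 29 of the 37 IFN-gamma genes were tested, of which 24 were higher and 2 lower (median 1.42), and 29 of the 32 type I genes, of which 26 were higher and 1 lower (median 2.16). Many of these fold changes start from a few reads. The GTPase gene Ifi47 had 132 and 116 reads with sgRNA2 and 3 and 0 reads in control, a ratio of 86.1 with a 95% counting interval from 29.1 to 420.2. The related gene Tgtp2, which can share reads with the near-identical Tgtp1, had 9 and 16 reads with sgRNA2 and none in control, at least 4.40-fold higher against a floor of 3 reads per library. Better measured members also rose: Irf1, the transcription factor gene shown above, had 126 and 127 CPM with sgRNA2 and 22.6 and 26.6 CPM in control (2.36 ± 0.06, edgeR adjusted p = 6.27e-16), and the antiviral gene Rsad2 had 6.58 and 7.49 CPM with sgRNA2 and 0.465 and 0.210 CPM in control (4.35 ± 0.29). Socs1, the inhibitor of JAK signalling, was 1 of the 2 IFN-gamma genes called lower, with 2.75 and 2.04 CPM with sgRNA2 and 10.1 and 10.4 CPM in control (-2.09 ± 0.15), and the other was the tRNA synthetase gene Wars.

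Of 23 genes of MHC class I presentation, 20 were called higher and 3 lower (median 1.18). Psmb9, a subunit of the immunoproteasome, had 21.1 and 20.5 CPM with sgRNA2 and 1.08 and 1.52 CPM in control (3.99 ± 0.15, edgeR adjusted p = 8.85e-14), and Tap1, a chain of the peptide transporter, had 28.6 and 27.6 CPM with sgRNA2 and 3.31 and 3.77 CPM in control (2.99 ± 0.086). The non-classical class I gene H2-T23 had 168 and 157 CPM with sgRNA2 and 19.1 and 19.6 CPM in control (3.07 ± 0.059). H2 genes resemble each other and differ between BALB/c and the reference genome, which can shift their counts. The 3 called lower were the chaperones Calr (-0.65 ± 0.043) and Canx (-0.24 ± 0.041) and the trimming peptidase gene Erap1 (-0.43 ± 0.093). For Psmb9 and Tap1 the sgRNA2 levels in vehicle were under those of control cells with IFN-gamma: control cells given IFN-gamma had 293 and 277 CPM of Psmb9 and 684 and 666 CPM of Tap1.

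Inflammatory genes did not move as 1 block. On the acute phase and C/EBP-regulated list 10 of 15 were called higher and 4 lower (median 2.09). Here too some genes passed the filter on low counts only through other groups. With the 4 libraries of the comparison alone 14 were tested, of which 9 were higher and 4 lower (median 1.95). Lcn2, the siderophore-binding lipocalin whose promoter is shown above, had 97.7 and 95.5 CPM with sgRNA2 and 9.61 and 8.70 CPM in control (3.40 ± 0.071, edgeR adjusted p = 6.92e-17). The interleukin gene Il6 had 12 and 23 reads with sgRNA2 and 1 and 1 in control, a ratio of 18.2 with a 95% counting interval from 4.68 to 156. The complement gene Cfb, with 14 and 6 reads with sgRNA2 and none in control, was at least 3.41-fold higher, and the pentraxin gene Ptx3, with 11 and 11 reads with sgRNA2 and none in control, at least 3.83-fold higher. The members called lower were the granulocyte growth factor gene Csf3 with 79.1 and 76.9 CPM with sgRNA2 and 176 and 174 CPM in control (-1.17 ± 0.049), Cebpg (-0.72 ± 0.062), another C/EBP family gene, the prostaglandin synthase gene Ptgs2 (-0.53 ± 0.047), and Mmp3 (-0.28 ± 0.044). Of 28 chemokines and cytokines, 14 were called higher and 7 lower (median 0.34). With the 4 libraries alone 26 of them were tested, 14 higher and 7 lower (median 0.25). The chemokine gene Ccl5 had 16.9 and 15.3 CPM with sgRNA2 and 3.72 and 3.83 CPM in control (2.09 ± 0.12), while the epithelial cytokine gene Tslp had 17.5 and 17.6 CPM with sgRNA2 and 87.3 and 83.2 CPM in control (-2.28 ± 0.084) and the neutrophil chemokine gene Cxcl3 had 6.22 and 5.67 CPM with sgRNA2 and 23.1 and 24.4 CPM in control (-1.99 ± 0.099). On the list of NF-kB feedback genes 9 of 17 were higher and 6 lower (median 0.21), and 11 higher and 3 lower under upper quartile scaling. The adhesion molecule gene Icam1 had 4.67 and 5.16 CPM with sgRNA2 and 0.207 and 0.210 CPM in control (4.52 ± 0.25), and Rela, an NF-kB subunit, had 48.99 and 47.2 CPM with sgRNA2 and 84.1 and 83.4 CPM in control (-0.80 ± 0.056). Nos2, the inducible nitric oxide synthase, had 106 and 107 CPM with sgRNA2 and 6.87 and 7.44 CPM in control (3.89 ± 0.067, edgeR adjusted p = 1.6e-17). On its list of nitric oxide and arginine genes 8 of 12 were called higher and 4 lower (median 1.27), with the polyamine enzyme gene Odc1 at 384 and 400.2 CPM with sgRNA2 and 1157 and 1125 CPM in control (-1.54 ± 0.042).

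Some markers of other cell types were also higher in sgRNA2 cells, as given here beside the immune lists. Of 10 macrophage markers 5 were in the table, with a summed 46.6 and 48.4 CPM in sgRNA2 and 14.7 and 16.3 CPM in control libraries, and the 3 tested (Csf1r, Cd68 and Cd14) were all called higher. The pan-leukocyte marker Ptprc had 0.207 and 0.567 CPM with sgRNA2 and 0.310 and 0.367 CPM in control, and none of 10 lymphocyte markers was among the genes analysed. Of 10 fibroblast markers 3 were in the table (Col1a1, Postn and Pdgfra), with 41.0 and 40.8 CPM in sgRNA2 and 17.3 and 16.3 CPM in control libraries, all called higher. The 2 endothelial markers in the table summed to 0.104 and 0.340 CPM in sgRNA2 and 0 and 0.0524 CPM in control libraries. In RNA from whole cultures, more cells of a type and more RNA per cell cannot be told apart. The part of other cells in the gene lists was not tested.

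Growth factor response, stress and identity genes changed in both directions. Of 26 immediate early and MAPK feedback genes, 18 were called lower and 5 higher (median -0.62), and 3 higher without sgRNA2 replicate 1. The transcription factor gene Egr1 had 1.30 and 1.08 CPM with sgRNA2 and 10.8 and 10.9 CPM in control (-3.18 ± 0.21, edgeR adjusted p = 1.29e-10), and Fosl1, an AP-1 subunit, had 30.8 and 30.4 CPM with sgRNA2 and 116 and 115 CPM in control (-1.92 ± 0.057), while Junb, another AP-1 subunit, had 499 and 452 CPM with sgRNA2 and 251 and 249 CPM in control (0.93 ± 0.053). Of 17 p53 targets 10 were higher and 3 lower (median 0.43), among them the death receptor gene Fas with 32.6 and 35.97 CPM with sgRNA2 and 2.94 and 3.88 CPM in control (3.33 ± 0.12) and the nuclease gene Aen with 7.78 and 7.26 CPM with sgRNA2 and 47.9 and 48.02 CPM in control (-2.67 ± 0.09). Lysosome and autophagy genes were called higher in 20 of 27 and lower in 5 (median 0.57; 3 lower by upper quartile scaling), with Map1lc3b, an autophagosome protein gene, at 432 and 417 CPM with sgRNA2 and 166 and 161 CPM in control (1.38 ± 0.048). Of 19 NRF2 antioxidant genes 7 were higher and 10 lower (median -0.33), and of 19 ER chaperone and XBP1 genes 8 were higher and 8 lower (median -0.014, and 0.15 by upper quartile scaling), where 5 were called higher when either sgRNA2 replicate was left out. Both ER shares, and the share of NRF2 genes called higher, were near those over all tested genes (38.3% higher and 35.0% lower). Of 24 epithelial genes 17 were higher and 6 lower (median 0.42). The keratin gene Krt19 had 269 and 269 CPM with sgRNA2 and 97.6 and 96.9 CPM in control (1.47 ± 0.05), and Krt8 had 871 and 825 CPM with sgRNA2 and 1113 and 1132 CPM in control (-0.40 ± 0.045). Of 10 mesenchymal genes 2 were higher and 3 lower (median -0.074), and 5 higher and 3 lower by upper quartile scaling (median 0.093). TGF-beta targets were higher in 10 of 17 and lower in 4 (median 0.63), with the crosslinking enzyme gene Tgm2 at 82.9 and 89.3 CPM with sgRNA2 and 14.1 and 12.6 CPM in control (2.69 ± 0.071).

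Mitochondrially encoded genes were uneven. Of 13, 6 were called higher and 3 lower (median 0.49), but only 3 were higher without sgRNA2 replicate 2 and 3 with DESeq2. The list median was 0.055 without sgRNA2 replicate 2 and 0.24 without control replicate 1. It was 0.46 without sgRNA2 replicate 1 and 0.32 without control replicate 2. mt-Co1, a subunit of cytochrome oxidase, had 6763 and 6711 CPM with sgRNA2 and 2194 and 1971 CPM in control (1.69 ± 0.049, edgeR adjusted p = 2.74e-15), whereas mt-Nd3, of complex I, had 47.5 and 71.2 CPM with sgRNA2 and 148 and 185 CPM in control (-1.49 ± 0.24). The nuclear respiratory chain genes moved both ways, with 10 of 27 higher and 10 lower (median 0.082), shares close to those over all genes. Cycs, cytochrome c, had 50.3 and 57.3 CPM with sgRNA2 and 165 and 173 CPM in control (-1.65 ± 0.066).

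Ranked by size alone, the largest fold changes among genes of at least 5 CPM were rises. Ndrg2, of the NDRG family, had 11.9 and 11.01 CPM with sgRNA2 and 0.258 and 0.210 CPM in control (5.57 ± 0.29, edgeR adjusted p = 8e-12). The coronin gene Coro6, an actin-binding protein, had 53.8 and 52.9 CPM with sgRNA2 and 2.01 and 2.41 CPM in control (4.59 ± 0.13). Adssl1, an adenylosuccinate synthase, had 50.03 and 49.5 CPM with sgRNA2 and 2.94 and 3.20 CPM in control (4.02 ± 0.12), and integrin beta 3 (Itgb3) had 21.2 and 23.5 CPM with sgRNA2 and 1.14 and 1.63 CPM in control (4.01 ± 0.21). The other largest rises were Olfr1372-ps1, Pyroxd2, the semaphorin gene Sema6c, the vitamin B12 carrier gene Tcn2, the receptor accessory gene Ramp1, the kinesin gene Kif21b, Tcp11l2 and Arrdc4, with log2 fold changes between 4.06 (Arrdc4) and 4.87 (Olfr1372-ps1). Among the 12 largest falls, Rrp12, Bysl, Mdn1, Utp20 and the nucleolar protein gene Urb1 (-2.83 ± 0.12) act in ribosome biogenesis. Trmt61a, the catalytic subunit of a tRNA methyltransferase, fell most, to 4.82 and 4.25 CPM with sgRNA2, against 48.2 and 45.6 CPM in control (-3.37 ± 0.11, edgeR adjusted p = 1.51e-14). Pop1, a subunit of RNase P and RNase MRP, had 21.2 and 21.4 CPM with sgRNA2 and 135 and 139 CPM in control (-2.69 ± 0.059), and Slc30a1, the zinc exporter of the plasma membrane, had 1.30 and 1.25 CPM with sgRNA2 and 12.96 and 11.6 CPM in control (-3.26 ± 0.19). The remaining falls were Slc16a6, Egr1, Bend3 and Pprc1, with -3.31, -3.18, -3.14 and -2.69 on the log2 scale. In CPM the 3 largest losses were in Actb, with 1372 and 1409.5 CPM with sgRNA2 and 2505 and 2661 CPM in control, in the chaperone gene Hsp90aa1, with 951 and 928 CPM with sgRNA2 and 2098 and 2088 CPM in control, and in Pabpc1, the poly(A)-binding protein gene, with 2022 and 2000.4 CPM with sgRNA2 and 3122 and 3163 CPM in control. The linker histone gene H1f0 gained, with 3645 and 3464 CPM with sgRNA2 and 1041 and 1031 CPM in control (1.78 ± 0.048).

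The same comparison was set against the other guide. Tested directly in vehicle, in a comparison that shares its sgRNA2 libraries with the one above, sgRNA2 and sgRNA1 libraries differed at 8476 of 13601 genes (62.3%), 4518 higher (33.2%) and 3958 lower (29.1%) with sgRNA2. All 35 ribosome biogenesis factors were lower with sgRNA2 than with sgRNA1 (median -1.41), as were 38 of 40 DNA replication genes (median -0.66) and 21 of 24 sterol synthesis genes (median -0.64). Hypoxia-inducible genes were higher with sgRNA2 in 25 of 29 (median 0.999), IFN-gamma response genes in 25 of 37 (median 0.76) and cytosolic ribosomal protein genes in 55 of 79 (median 0.23). For acute phase genes the guides were closer in median, with 4 of 15 higher and 7 lower with sgRNA2 (median -0.059). Against the same 2 control libraries, sgRNA1 libraries had 3487 genes called higher (25.6%) and 3654 lower (26.9%). Ribosome biogenesis factors were lower than control with sgRNA1 in 29 of 35 and higher in 2 (median -0.38), and hypoxia-inducible genes were higher in 18 of 29 and lower in 3 (median 0.49). IFN-gamma response genes were higher with sgRNA1 in 20 of 37 and lower in 4 (median 0.92), and cytosolic ribosomal protein genes were higher in 63 of 79, with 16 not called (median 0.41). As stated above, the 37 include genes that passed the filter on low counts only through groups other than sgRNA2 and control in vehicle. The levels of the hypoxia gene Vegfa were 237 and 229 CPM with sgRNA2, 50.2 and 52.02 CPM with sgRNA1 and 23.5 and 23.8 CPM in control, and those of Rrp12 were 6.12 and 6.35 CPM with sgRNA2, 36.4 and 35.5 CPM with sgRNA1 and 59.1 and 61.8 CPM in control. For Lcn2 they were 97.7 and 95.5 CPM with sgRNA2, 52.95 and 52.9 CPM with sgRNA1 and 9.61 and 8.70 CPM in control. Cebpd itself was lower with sgRNA2 than with sgRNA1, at 13.6 and 13.4 CPM with sgRNA1 (sgRNA2 minus sgRNA1 -0.50 ± 0.12 on the log2 scale, edgeR adjusted p = 0.00135).

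Of the 13601 tested genes, 8009 were called with sgRNA2 against control, had at least 5 CPM and had groups that did not overlap, predicted symbols left out. Of these 8009, 511 were called in opposite directions against control with the 2 guides and also between the guides. Among the 511, sgRNA2 lay above sgRNA1 in 247 and below it in 264, and 12 were named. The number called in the same direction with both guides is not given here. Ndrg1, a hypoxia-inducible gene, had 1178 and 1162 CPM with sgRNA2, 266 and 274 CPM with sgRNA1 and 408 and 418 CPM in control (sgRNA2 minus sgRNA1 2.12 ± 0.04). Mxd1, which encodes a MYC antagonist, had 14.7 and 15.5 CPM with sgRNA2, 4.08 and 3.44 CPM with sgRNA1 and 6.51 and 4.19 CPM in control (sgRNA2 minus sgRNA1 1.99 ± 0.16). In the other direction, Nop56, a core protein of RNA-methylating snoRNPs, had 158 and 154 CPM with sgRNA2, 534 and 542 CPM with sgRNA1 and 506 and 491 CPM in control (sgRNA2 minus sgRNA1 -1.79 ± 0.044), and cyclin E2 (Ccne2) had 24.6 and 24.9 CPM with sgRNA2, 84.6 and 89.9 CPM with sgRNA1 and 75.2 and 70.9 CPM in control (sgRNA2 minus sgRNA1 -1.82 ± 0.076). Mir17hg, the host transcript of a microRNA cluster, had 8.97 and 7.38 CPM with sgRNA2, 23.3 and 26.3 CPM with sgRNA1 and 15.96 and 16.3 CPM in control. Both guides were compared with the same 2 control libraries, and these genes were chosen for their difference.

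**Figure D4:**
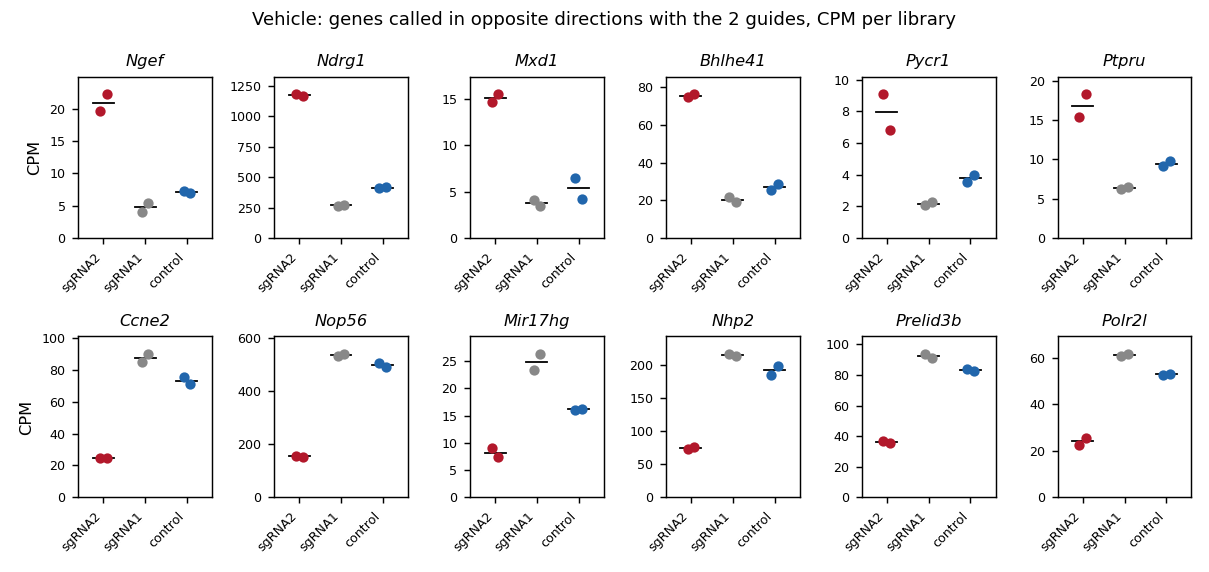
CPM (y axis, from 0) in each vehicle library of the 12 genes called in opposite directions with the 2 guides; points are libraries of sgRNA2 (red), sgRNA1 (grey) and control (blue), lines are group means. In the upper panels sgRNA2 lies highest and sgRNA1 lowest, and in the lower panels sgRNA2 lies lowest and sgRNA1 highest.

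In 4 other libraries, sgRNA2 and control cells given IFN-gamma, many of these differences were not called or had the opposite sign. There 4105 genes were higher (30.2%) and 4297 lower (31.6%) with sgRNA2, and the difference between sgRNA2 and control depended on IFN-gamma at 8860 genes (65.1%, test of the interaction; 30.4% higher and 34.7% lower). Of the 2344 genes at least 2-fold higher with sgRNA2 in vehicle, 750 (32.0%) were also called higher in IFN-gamma and 416 (17.7%) were called lower there, with a median of 0.19 in IFN-gamma and 1.75 in vehicle. Of the 1195 genes at least 2-fold lower in vehicle, 342 (28.6%) were lower and 431 (36.1%) higher in IFN-gamma, with medians of 0.094 in IFN-gamma and -1.34 in vehicle. The vehicle medians of both sets follow from how they were chosen. Of the 35 ribosome biogenesis factors, 25 were called higher and 2 lower with sgRNA2 in IFN-gamma (median 0.36), and all 35 differed by the interaction (median 2.44). Bysl had 30.3 and 29.7 CPM with sgRNA2 and 16.2 and 15.2 CPM in control with IFN-gamma (interaction 3.87 ± 0.11, edgeR adjusted p = 5.36e-15). Cytosolic ribosomal protein genes were mostly higher in both conditions: in IFN-gamma 63 of 79 were called higher and the other 16 were not called (median 0.42), against 73 higher and 2 lower in vehicle (median 0.61). By the interaction 44 of the 79 were called lower and 4 higher (median -0.23).

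IFN-gamma response genes, higher with sgRNA2 in vehicle, were lower with sgRNA2 in IFN-gamma in 31 of 37 and higher in 3 (median -0.61). Gbp5 had 115 and 119 CPM with sgRNA2 and 242 and 239.7 CPM in control with IFN-gamma, where both lines were far above their vehicle levels. Of the hypoxia-inducible genes 11 were higher and 12 lower in IFN-gamma (median -0.21), and Vegfa had 57.7 and 62.6 CPM with sgRNA2 and 39.4 and 44.8 CPM in control. DNA replication genes were higher in 24 of 40 and lower in 10 (median 0.26), and ATF4 targets higher in 21 of 25 and lower in 1 (median 0.75). Fatty acid synthesis genes were lower in both: 14 of 19 were lower and 2 higher in IFN-gamma (median -0.43). Fasn had 163 and 166 CPM with sgRNA2 and 424 and 407 CPM in control with IFN-gamma.

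The largest interactions among genes called in opposite directions were in Dbp, Txnip, Tcp11l2, Adssl1, Vsir and Nos2. These 6 genes were chosen for the size of their interaction, which also uses the 4 vehicle libraries. Dbp, a circadian transcription factor gene, had 3.81 and 6.24 CPM with sgRNA2 and 23.3 and 21.5 CPM in control with IFN-gamma, and 21.5 and 21.8 CPM with sgRNA2 and 1.91 and 1.73 CPM in control with vehicle (interaction -5.69 ± 0.29). Txnip had 43.2 and 43.9 CPM with sgRNA2 and 126 and 128 CPM in control with IFN-gamma (interaction -5.46 ± 0.075, edgeR adjusted p = 6.65e-19). Vsir, which encodes the immune checkpoint protein VISTA, had 3.60 and 4.20 CPM with sgRNA2 and 22.2 and 18.2 CPM in control with IFN-gamma, and 20.7 and 21.2 CPM with sgRNA2 and 3.41 and 4.51 CPM in control with vehicle (interaction -4.76 ± 0.22). Nos2 had 787 and 768 CPM with sgRNA2 and 1304 and 1315 CPM in control with IFN-gamma (interaction -4.64 ± 0.08). Cebpd had 30.2 and 29.4 CPM with sgRNA2 and 53.5 and 49.1 CPM in control with IFN-gamma (-0.78 ± 0.086, edgeR adjusted p = 3.03e-07). Its interaction was -1.02 ± 0.15.

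**Figure D5:**
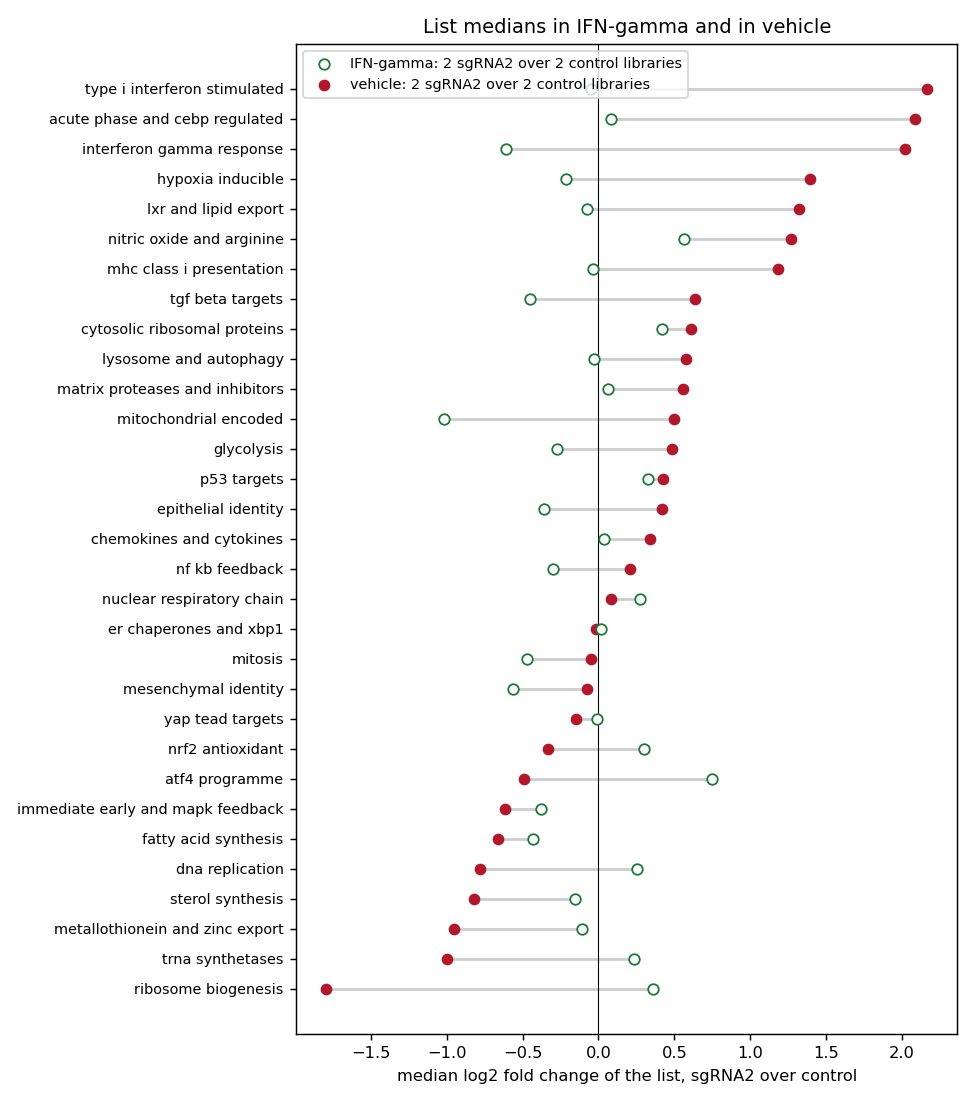
Median log2 fold change of sgRNA2 over control (x axis) for each gene list (y axis) in IFN-gamma (open green circles, 4 libraries) and in vehicle (red circles, 4 other libraries). The ribosome biogenesis median is 0.36 in IFN-gamma and -1.79 in vehicle, the IFN-gamma response median is -0.61 in IFN-gamma and 2.02 in vehicle, and the cytosolic ribosomal protein median is 0.42 in IFN-gamma and 0.61 in vehicle.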

How the data were processed

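RNA of 4T1 cells was sequenced in 12 libraries, 2 for each of 6 groups, and the authors deposited raw read counts for each gene as whole numbers. Per the submitters' processing notes, STAR 2.4.0, HTSeq, DESeq2 1.10 and build mm10 were used; annotation, strand setting and filters are not stated in these sources. Per the labels' protocols, libraries came from an Illumina TruSeq RNA kit, which does not mark strand, so reads of antisense and sense genes that overlap cannot be told apart. Near-identical genes can share reads. Gene names of the table were looked up in GENCODE vM21 (GRCm38, the assembly of mm10): 15941 of 16283 directly, 251 by synonym and 91 not. Coordinates are 1-based.

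With edgeR 4.0.16 in R 4.3.3, genes were kept by filterByExpr (minimum count 10, minimum total 15), leaving 13601 genes with 99.965% of counts. The other 2682 were not tested. Sizes were scaled by TMM (factors 0.963 to 1.09), and CPM were computed from these sizes. A model with 6 group terms on all 12 libraries was tested with the quasi-likelihood test and Benjamini-Hochberg adjustment over all tested genes. The common biological coefficient of variation was 4.67%, with 6 residual degrees of freedom. SE is the fold change divided by the square root of F, so it restates the test. Total counts ran from 16912710 to 24784371. The chi-square per degree of freedom was 5.15 between the sgRNA2 vehicle libraries and 3.63 between the control vehicle libraries, so neither pair agreed within sampling noise. In a simulation on 13601 genes, all groups were drawn from control vehicle levels and only 200 genes were changed. Of these 197 were recovered, and 9 unchanged genes were called. In the data 9971 genes were called, so the simulation checks the procedure and does not give the error rate of this comparison. Where control had no reads, a bound used a floor of 3 reads per library; with few reads, ratios have exact 95% intervals. Both cover counting error only.

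The comparison and the gene lists were chosen with earlier results of these data known. Named genes were Cebpd and, among called genes of at least 5 CPM whose groups did not overlap, the 12 largest rises and falls in fold and the 6 largest in CPM. They also took up to 4 called members of each list per direction, 6 genes per direction called opposite with the 2 guides, 6 called opposite in vehicle and IFN-gamma, and the genes within 2 Mb of Cebpd. Predicted symbols were left out, some genes the rule names are not reported here, and Epcam, Krt18, Cdh1, Ptprc and Irf1 were named as markers or for a promoter. Promoters of 10035 of the tested genes were matched in RefSeq. Alternatives were upper quartile and RLE scaling, DESeq2 1.42.0, no filter, only the 4 libraries compared, a replicate block, and leaving out each library.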

Additional observations from a re-analysis of the deposited data

Results flagged for a closer look

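Differences between groups under the same contrast were tested directly. The sgRNA2 and sgRNA1 libraries differed in vehicle at 8476 genes, and the sgRNA2 difference from control depended on IFN-gamma at 8860 genes.

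Among genes called in opposite directions with the guides, the log2 difference of sgRNA2 minus sgRNA1 was 2.14 for Ngef, 2.12 for Ndrg1, 1.99 for Mxd1, 1.88 for Bhlhe41, 1.87 for Pycr1 and 1.40 for Ptpru, in each case with sgRNA2 above control and sgRNA1 below it. It was -1.82 for Ccne2, -1.79 for Nop56, -1.60 for Mir17hg, -1.53 for Nhp2, -1.36 for Prelid3b and -1.35 for Polr2l, with sgRNA2 below control and sgRNA1 above it.

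Among genes whose sgRNA2 difference from control was called in opposite directions with IFN-gamma and with vehicle, the interaction on the log2 scale was -5.69 for Dbp, -5.46 for Txnip, -5.11 for Tcp11l2, -4.86 for Adssl1, -4.76 for Vsir and -4.64 for Nos2. Each was lower than control with sgRNA2 in IFN-gamma and higher in vehicle. With 2 libraries per group, no group was large enough to be searched for a library far from the others.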

How the results depend on the processing

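The number of genes called in the vehicle comparison was 9971, and under other scaling, DESeq2, no filter, the 4 libraries alone or a replicate block it lay between 9263 and 10130. Leaving out 1 library at a time gave 9161 to 9298 calls, with 4544 to 4767 higher, 4443 to 4707 lower, 2115 to 2246 at least 2-fold higher and 1173 to 1308 at least 2-fold lower. It gave 7398 to 7629 genes for sgRNA2 against sgRNA1 and 8365 to 8515 for the interaction. Of the calls, 8962 were shared with the same sign under upper quartile scaling and 9251 with DESeq2. Counts of a list's more frequent direction that moved by more than 1.5 times were mitosis lower, 6 under upper quartile scaling against 11; mitochondrially encoded higher, 3 with DESeq2 and 3 to 5 with 1 library left out, against 6; and ER chaperones higher, 5 in the 4 libraries alone and 5 to 7 with 1 library left out, against 8. Of the less frequent direction, counts of 3 or more that moved so were, under upper quartile scaling, mitosis higher (17 against 10), DNA replication higher (5 against 3), NF-kB feedback lower (3 against 6), lysosome lower (3 against 5) and, from 2, mesenchymal higher (5). Fatty acid synthesis higher was 0 to 2 against 4 in all but upper quartile scaling and the block, and immediate early higher was 3 against 5 without sgRNA2 replicate 1. Under that scaling Pfkl (0.0032) and Smad3 (0.016) turned from lower to slightly above 0. Of 2938 recomputed values of named genes, 2834 kept direction and side of the threshold, 92 lost the call, 10 gained one and 2 changed sign. The matrix protease list median was 0.56, and -0.23 in the 4 libraries alone, where fewer genes passed the filter.

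Replicate numbers were not shown to pair the libraries: the correlation of same-numbered deviations was -0.052 between sgRNA2 and control in vehicle and 0.060 between the guides, over 9534 genes. It was -0.139 between sgRNA2 and control in IFN-gamma, -0.221 between IFN-gamma and vehicle in sgRNA2 and -0.29 in control. With replicate number as a block, 9947 genes were called, 9893 of them shared with the same sign, and 8460 differed between the guides and 8807 by the interaction. In IFN-gamma 8402 genes were called, 8368 with the block, and, with the control IFN-gamma numbers crossed (chosen after seeing the data), 8342, with 8790 by the interaction. With 2 libraries per group, these data cannot separate variation between cultures from technical variation, and low-count genes rest on few reads.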

Other observations

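Genes of zinc handling were mostly lower with sgRNA2: 5 of 6 tested were called lower and 1 higher (median -0.95). The metallothionein gene Mt2, whose product binds zinc, had 22.04 and 20.4 CPM with sgRNA2 and 57.2 and 63.5 CPM in control (-1.51 ± 0.089), and Mt1 had 58.5 and 51.2 CPM with sgRNA2 and 109 and 105 CPM in control (-0.96 ± 0.07). Among 15 matrix proteases and inhibitors 6 were higher and 7 lower. The gelatinase gene Mmp9 had 383 and 366 CPM with sgRNA2 and 75.8 and 78.96 CPM in control (2.27 ± 0.046), and the urokinase receptor gene Plaur had 44.5 and 38.9 CPM with sgRNA2 and 134 and 129 CPM in control (-1.65 ± 0.06). Of 18 YAP and TEAD targets 7 were higher and 9 lower (median -0.15, and 0.021 by upper quartile scaling), with the receptor kinase gene Axl at 399 and 386 CPM with sgRNA2 and 951 and 951 CPM in control (-1.28 ± 0.04). On the matrix protease and YAP lists the share called higher was near the 38.3% over all tested genes.

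Genes beside Cebpd did not share a direction. Of 42 genes tested within 2 Mb of it on chromosome 16, 16 were called higher and 19 lower with sgRNA2 (median 0.066). Over all tested genes 38.3% were called higher and 35.0% lower (median 0.062), so the median near Cebpd was close to that of all genes. Tmem191c was highest (2.70 ± 0.27) and Ccdc116 lowest (-3.88 ± 0.88). Chromosome medians ran from -0.13 on chromosome 19 to 0.24 on chromosome 3. The fold changes varied with level: the median was 0.82 over 1598 genes below 1 CPM, 0.71 over 1768 genes at 1 to 5 CPM, -0.11 over 5367 genes at 20 to 100 CPM and -0.14 over 2192 genes above 100 CPM. The number of genes with at least 1 read was 15812 and 15839 in the sgRNA2 libraries and 15375 and 15425 in the control libraries.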
